A study of Homo sapiens with 36 samples.

Results

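Transcripts of the plasminogen activator system were followed in 3 human breast cancer cell lines after knockdown of the phosphatase gene DUSP4 or inhibition of the kinase MEK. The genes were given by name as PLAU, PLAUR, PLAT, SERPINE2 and SERPINB2. Each was to be read from an array probe annotated with that symbol alone, and 4 of the 5 were matched, each by 1 such probe, out of 17958 genes measured in this way. SERPINB2 had no probe annotated with its symbol alone and was not analysed here. Both activator genes and PLAUR fell in MDA231 under the MEK inhibitor, whereas SERPINE2 fell in SUM159PT and BT549 after DUSP4 knockdown.

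PLAU encodes urokinase and PLAT encodes tissue-type plasminogen activator, the secreted proteases that cut plasminogen into plasmin. PLAUR encodes the urokinase receptor, a lipid-anchored surface protein that concentrates urokinase at the cell edge. Serpins are protease inhibitors that trap their target in a covalent complex, and SERPINE2, protease nexin-1, acts on thrombin, urokinase, tissue-type activator and plasmin. SERPINB2 encodes plasminogen activator inhibitor type 2. Plasmin digests fibrin and matrix proteins and activates other proteases, and high urokinase protein is a known marker of poor outcome in breast cancer. PLAU and PLAUR are known targets of AP-1 and ETS factors, which ERK signalling activates.

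The study put 3 arrays into each of 12 groups, 4 groups in each of MDA231 (MDA-MB-231), SUM159PT and BT549, all established lines of triple-negative breast cancer. The siCONTROL group carried a pool of non-targeting siRNA and the vehicle DMSO. The siDUSP4 group carried siRNA against DUSP4, whose product dephosphorylates ERK and related kinases in the nucleus, and DMSO. The remaining groups carried the non-targeting siRNA and 1 uM selumetinib (AZD6244), which inhibits MEK1 and MEK2 and so blocks ERK activation, over the final 4 h or 24 h. All siRNA was used at 10 nM by reverse transfection, and harvest was at 96 h in every group. The knockdown is transient, so it stands for partial loss of DUSP4 and not for a deleted gene. MDA231 grew in DMEM, BT549 in RPMI and SUM159PT in DMEM/F12 with hydrocortisone, so the line and its medium cannot be told apart.

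For 24 arrays the source name and description exchange the names SUM159PT and BT549 relative to the title and cell line field, and the titles were followed here. If the other reading were right, the values given for SUM159PT and BT549 would exchange names, and those of MDA231 and of the mean of the lines would stay. RB1, known to be lost in BT549, stood at 6.83 in siCONTROL arrays titled BT549, against 10.31 in MDA231 and 9.40 in SUM159PT, although it read 8.03 in siDUSP4 arrays titled BT549. CDKN2A, known to be deleted in MDA231 and often high where RB1 is lost, was at 9.82 to 10.02 in the 4 group means titled BT549 and at 3.92 to 4.48 in the other 8. VIM, a mesenchymal marker, was at 11.67 to 12.15 in the 12 group means, CDH1 at 4.13 to 5.04 and ESR1 at 4.02 to 4.49. EPCAM, an epithelial marker, was not low in every line, with group means of 8.13 to 8.53 in MDA231. Its means were 5.16 to 6.11 in SUM159PT and 4.39 to 5.21 in BT549. Of 11 measured blood and endothelial markers, VWF, CDH5, CD3E, HBB and MS4A1 stayed under the median probe level of 5.33 on every array, whereas CD68 was above it on all 36, PECAM1 on 24, KDR on 21, CD14 on 16, PTPRC on 5 and LYZ on 1. DUSP4 was left at 18.7%, 27.9% and 21.1% of control after siDUSP4 in MDA231, SUM159PT and BT549. Dim signal limits the values in SUM159PT and BT549, where DUSP4 after knockdown read 5.30 and 4.89, under the median probe level. Selumetinib lowered DUSP4 as well, to 19.6%, 39.3% and 63.1% of control at 4 h in MDA231, SUM159PT and BT549. At 24 h it stood at 41.8%, 55.4% and 60.6%. The 4 h fall in BT549 was not called (limma adjusted p = 0.062). Of 14 genes known as ERK output, 14, 11 and 7 were lower after 4 h of selumetinib in MDA231, SUM159PT and BT549, and 13, 9 and 7 after 24 h. Over all genes 14.5%, 3.81% and 0.49% were lower at 4 h and 10.3%, 2.94% and 12.4% at 24 h. After siDUSP4, 0, 0 and 1 of the 14 were higher and 3, 1 and 1 lower, in the same order of lines. The shares of all genes after siDUSP4 were 7.86%, 1.05% and 4.97% higher and 9.77%, 1.78% and 9.22% lower. Array medians ran from 5.12 to 5.4 and upper quartiles from 7.48 to 8.03, the lowest on array B of MDA231 at 4 h and array A of BT549 at 24 h (7.50). The labels do not say whether the replicate letters A, B and C are separate cultures, and the tests can speak only for array-to-array spread, possibly technical in origin.

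The starts of PLAU, PLAUR and SERPINE2 were searched because AP-1 and ETS sites close to a start are a known feature of ERK-responsive genes. Windows of 300 bases, from 250 before to 50 after each RefSeq start (GRCh38.p14), were read on both strands for the AP-1 motif TGANTCA and the ETS motif GGAAGT. The sequences of PLAUR and of 1 window each of PLAU and SERPINE2 are shown 5′ to 3′ on the gene's strand, with matches in capitals.
PLAUR, chr19:43670120-43670419, minus strand: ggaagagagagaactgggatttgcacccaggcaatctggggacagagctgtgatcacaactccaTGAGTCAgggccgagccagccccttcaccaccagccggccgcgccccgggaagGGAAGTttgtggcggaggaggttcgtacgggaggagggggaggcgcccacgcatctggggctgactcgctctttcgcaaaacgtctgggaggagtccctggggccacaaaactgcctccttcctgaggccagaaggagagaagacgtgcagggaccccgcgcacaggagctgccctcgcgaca
PLAU, chr10:73910882-73911181, plus strand: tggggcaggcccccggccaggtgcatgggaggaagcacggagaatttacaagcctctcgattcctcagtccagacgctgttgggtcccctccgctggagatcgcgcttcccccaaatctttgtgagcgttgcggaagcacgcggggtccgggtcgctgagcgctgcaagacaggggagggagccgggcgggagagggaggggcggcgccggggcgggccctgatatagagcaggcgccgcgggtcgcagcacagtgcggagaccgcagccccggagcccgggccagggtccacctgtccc
SERPINE2, chr2:224038591-224038890, minus strand: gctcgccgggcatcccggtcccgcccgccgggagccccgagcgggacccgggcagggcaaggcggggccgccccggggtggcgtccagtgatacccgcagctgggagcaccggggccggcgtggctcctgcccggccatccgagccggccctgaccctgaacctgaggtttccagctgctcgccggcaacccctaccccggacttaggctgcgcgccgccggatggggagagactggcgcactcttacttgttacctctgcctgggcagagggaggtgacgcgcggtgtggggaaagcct
The PLAUR window held 1 AP-1 match, TGAGTCA, at -186 to -180 from the start, and 1 ETS match, GGAAGT, at -133 to -128. Neither motif was found in the 2 windows of PLAU or the 2 windows of SERPINE2. Of 35116 windows of the same length over all genes, 7.70% held the AP-1 letters, 22.8% the ETS letters and 1.75% both. A match describes the letters only, and other sites may lie outside these windows. PLAT has no sequence shown here.

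In siCONTROL cells the 4 genes were ordered differently across the lines. PLAU signal (log2, on arrays A, B and C) was 10.69, 10.75 and 10.81 in MDA231, 10.06, 9.72 and 9.68 in BT549, and 7.16, 7.10 and 7.08 in SUM159PT. The arrays of the 3 lines did not overlap, and urokinase transcript was highest in MDA231 and lowest in SUM159PT. The mean of MDA231 exceeded that of SUM159PT by 3.64 ± 0.17 (SE, limma adjusted p = 8.0e-19) and that of BT549 by 0.93 ± 0.17 (adjusted p = 1.8e-05).

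PLAUR followed the order of PLAU. Its signal was 10.57, 10.41 and 10.79 in MDA231, 10.18, 9.63 and 9.57 in BT549, and 8.89, 8.88 and 8.92 in SUM159PT. Array A of BT549 lay nearer to MDA231 than its own 2 partners did, yet still below every MDA231 array. MDA231 exceeded BT549 by 0.80 ± 0.13 (adjusted p = 1.8e-06), and SUM159PT was below BT549 (-0.90 ± 0.13, adjusted p = 2.2e-07).

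PLAT had the widest span of the 4 genes in control cells. Its signal was 12.12, 12.08 and 11.93 in MDA231, 10.48, 10.42 and 10.45 in SUM159PT, and 6.0, 6.01 and 6.05 in BT549. Tissue-type activator was thus high in MDA231 and SUM159PT, while BT549, which ranked second for PLAU, was lowest for PLAT. MDA231 was above BT549 by 6.02 ± 0.11 (adjusted p = 1.7e-29) and above SUM159PT by 1.59 ± 0.11 (adjusted p = 5.1e-14).

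SERPINE2, the inhibitor, was highest in BT549, at 10.04, 10.02 and 10.02. It stood at 9.07, 8.91 and 8.86 in MDA231 and at 7.82, 7.83 and 7.73 in SUM159PT. No array of one line overlapped another line. MDA231 was below BT549 (-1.08 ± 0.11, adjusted p = 9.3e-10) and above SUM159PT by 1.15 ± 0.11 (adjusted p = 2.4e-10). All 4 genes were called at an adjusted p under 0.05 in each pair of lines, where 44.8% of all genes were called between MDA231 and SUM159PT, 48.1% between MDA231 and BT549 and 50.2% between SUM159PT and BT549. Non-overlap was also common, with 29.1% of all genes wholly higher and 28.7% wholly lower in MDA231 than in SUM159PT. These shares were 25.5% and 31.1% for MDA231 against BT549, and 28.6% and 33.2% for SUM159PT against BT549.

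**Figure D1:**
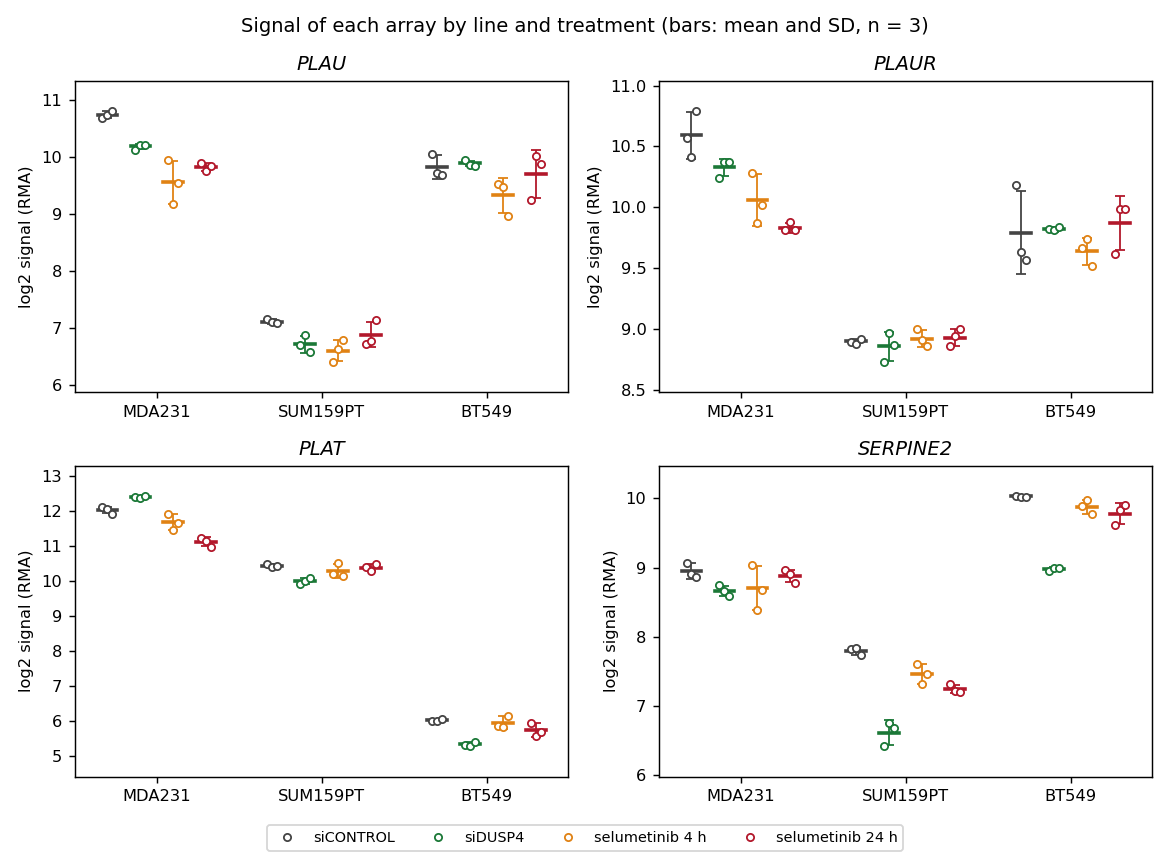
Log2 RMA signal of PLAU, PLAUR, PLAT and SERPINE2 on each of the 36 arrays (open circles), by line and treatment, with the mean (thick bar) and SD (thin bar) of 3 arrays; each panel has its own vertical scale. PLAT runs from about 12.04 in MDA231 controls to 6.02 in BT549 controls, and SERPINE2 in BT549 lies between 8.95 and 9.0 after siDUSP4 against 10.02 to 10.04 in controls.

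After siDUSP4, SERPINE2 had the largest change of the 4 genes in SUM159PT and BT549. In SUM159PT its signal went from 7.82, 7.83 and 7.73 in siCONTROL to 6.41, 6.75 and 6.68 in siDUSP4. In BT549 it went from 10.04, 10.02 and 10.02 to 8.95, 9.0 and 8.99. In both lines every knockdown array lay below every control array. The fall left 44.1% of control in SUM159PT (-1.18 ± 0.11 SE, adjusted p = 2.0e-08) and 48.4% in BT549 (-1.05 ± 0.11, adjusted p = 5.2e-08). As these are whole cultures, fewer cells holding the transcript and less transcript in each cell cannot be told apart.

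SERPINE2 in MDA231 read 9.07, 8.91 and 8.86 in siCONTROL and 8.74, 8.66 and 8.59 in siDUSP4. The groups did not overlap, but the change of -0.29 ± 0.11 did not pass the test (adjusted p = 0.088). It passed after repeated quantile normalization (-0.27, adjusted p = 0.027), after alignment of array medians (-0.33, adjusted p = 0.039) and with array weights (-0.28, adjusted p = 0.011). The siDUSP4 effect on SERPINE2 differed between lines (limma F = 17.7, adjusted p = 2.7e-04). The effect in MDA231 was smaller than in SUM159PT by 0.90 ± 0.16 (adjusted p = 4.3e-04) and than in BT549 by 0.76 ± 0.16 (adjusted p = 0.0014), and between SUM159PT and BT549 the difference was -0.13 ± 0.16 (adjusted p = 0.70). Averaged over the lines, SERPINE2 fell by 0.84 ± 0.07 (adjusted p = 3.5e-11), which ranked 31 by size among all falls.

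PLAT moved in opposite directions. In MDA231 it rose from 12.12, 12.08 and 11.93 in siCONTROL to 12.42, 12.38 and 12.45 in siDUSP4, with no overlap (0.38 ± 0.11, adjusted p = 0.016). In SUM159PT it fell from 10.48, 10.42 and 10.45 to 9.91, 10.02 and 10.08, again with no overlap (-0.45 ± 0.11, adjusted p = 0.019). In BT549 it fell from 6.0, 6.01 and 6.05 to 5.31, 5.29 and 5.4, so that 62.1% of control remained (-0.69 ± 0.11, adjusted p = 4.4e-05). All 3 knockdown arrays of BT549 were within 0.1 of the median probe level of 5.33, so dim signal limits that value.

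The PLAT effects differed between lines (F = 24.9, adjusted p = 2.5e-05). MDA231 exceeded SUM159PT by 0.82 ± 0.16 (adjusted p = 8.5e-04) and BT549 by 1.06 ± 0.16 (adjusted p = 1.4e-05). The single-line calls of PLAT in MDA231 and SUM159PT rest on few arrays. In MDA231 the call was lost without siCONTROL C (0.32, adjusted p = 0.091) or siDUSP4 C (0.36, adjusted p = 0.055), with aligned array medians (0.33, adjusted p = 0.057) and with the arrays of the line alone (0.38, adjusted p = 0.080). In SUM159PT it was lost without any 1 of siCONTROL A, B and C and siDUSP4 A and B, at -0.46 to -0.40 and adjusted p = 0.056 to 0.12. The mean over the lines was -0.25 ± 0.06 (adjusted p = 0.0048), which averages a rise and 2 falls.

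PLAU fell in MDA231 after siDUSP4, from 10.69, 10.75 and 10.81 to 10.12, 10.22 and 10.22. Knockdown arrays were all lower, and 67.5% of control remained (-0.57 ± 0.17, adjusted p = 0.016). That call was lost without siCONTROL C (-0.53, adjusted p = 0.060) or siDUSP4 A (-0.53, adjusted p = 0.064). SUM159PT went from 7.16, 7.10 and 7.08 to 6.69, 6.87 and 6.57, which did not overlap but did not pass (-0.41 ± 0.17, adjusted p = 0.25), although PLAU passed there with array weights (-0.39, adjusted p = 0.0074) and with the compared groups alone (adjusted p = 0.024). In BT549 the controls at 10.06, 9.72 and 9.68 and the knockdown arrays at 9.95, 9.87 and 9.85 overlapped (0.07 ± 0.17, adjusted p = 0.86). The mean over the lines fell by 0.30 ± 0.10 (adjusted p = 0.026), a call lost without siDUSP4 C of SUM159PT (-0.28, adjusted p = 0.057) or siCONTROL A of BT549 (-0.26, adjusted p = 0.068). The line difference of PLAU did not pass (F = 3.80, adjusted p = 0.14), but passed after repeated quantile normalization (F = 6.85, adjusted p = 0.019), with array weights (F = 8.68, adjusted p = 0.0050) and with the compared groups alone (F = 12.1, adjusted p = 0.0034).

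PLAUR was not called in any line after siDUSP4. In MDA231 it read 10.24, 10.37 and 10.37 against 10.57, 10.41 and 10.79 in controls, all lower (-0.26 ± 0.13, adjusted p = 0.16). SUM159PT was at 8.73, 8.97 and 8.87 and BT549 at 9.82, 9.81 and 9.84, both overlapping their controls. The changes there were -0.04 ± 0.13 and 0.03 ± 0.13, and the mean of the lines was -0.09 with a 95% interval from -0.24 to 0.06.

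In counts, siDUSP4 changed 2 of the 4 genes in each line, PLAU and PLAT in MDA231 and PLAT and SERPINE2 in SUM159PT and BT549. Over all genes 17.6% were called in MDA231, 2.83% in SUM159PT and 14.2% in BT549. Every siDUSP4 array lay below every control array for 18.8%, 19.9% and 19.9% of all genes in the same order. In MDA231 every siDUSP4 array lay above every control array for 17.5%. In the mean of the lines 3 of the 4 were called, against 18.7% of all genes, and the effect differed between lines for 2 of the 4, against 15.5%. None of the 4 was called in the same direction in all 3 lines, as 0.401% of all genes were for falls.

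**Figure D2:**
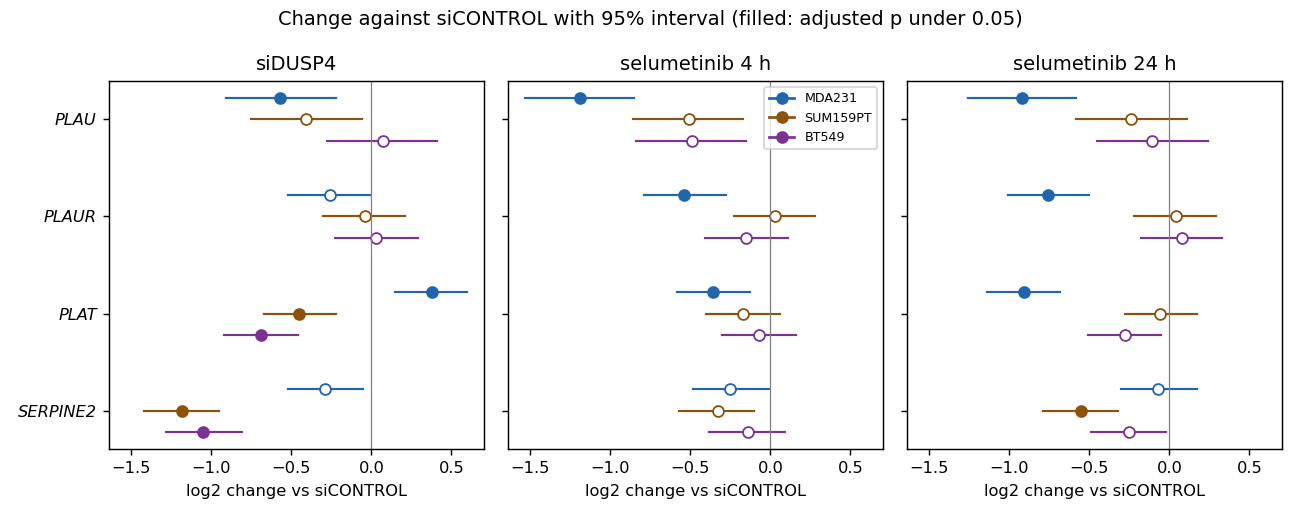
Log2 change against siCONTROL of each gene (rows) after siDUSP4, 4 h and 24 h of selumetinib (panels), with the 95% interval, in MDA231, SUM159PT and BT549 (colours); filled points passed an adjusted p under 0.05. PLAT after siDUSP4 lies above 0 in MDA231 (0.38) and below 0 in SUM159PT (-0.45) and BT549 (-0.69), and the 3 MDA231 values of PLAU, PLAUR and PLAT at 24 h lie between -0.92 and -0.76.

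PLAU had the largest fall of the 4 genes after 4 h of the MEK inhibitor. After 4 h in MDA231, PLAU read 9.95, 9.18 and 9.55 against 10.69, 10.75 and 10.81 in controls. All treated arrays were lower, with array B lowest, and 43.9% of control remained (-1.19 ± 0.17, adjusted p = 9.9e-06). Array B is also the array of lowest upper quartile, and without it PLAU was at -1.0 and still called. The median change of all genes in this comparison was -0.13, to be set beside each MDA231 value at 4 h.

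In the other two lines PLAU shifted less at 4 h and was not called. SUM159PT read 6.40, 6.62 and 6.78, all under the lowest control of 7.08 (-0.51 ± 0.17, adjusted p = 0.077). With aligned array medians PLAU passed there (-0.55, adjusted p = 0.034), as it did with array weights (-0.51, adjusted p = 0.0022) and with the arrays of that line alone (-0.51, adjusted p = 0.017). BT549 read 9.53, 9.48 and 8.97, all under the lowest control of 9.68 (-0.49 ± 0.17, adjusted p = 0.29). The mean of the lines fell by 0.73 ± 0.10 (adjusted p = 3.0e-06), leaving 60.2% of control and ranking 56 by size among all falls. The difference between lines did not pass (F = 5.50, adjusted p = 0.13), though it did without array A of MDA231 at 4 h (F = 9.08, adjusted p = 0.0083). At 4 h every treated array lay below every control array for 12.6% of all genes in MDA231, 23.3% in SUM159PT and 11.7% in BT549.

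PLAUR at 4 h fell in MDA231, to 10.28, 9.87 and 10.02 from 10.57, 10.41 and 10.79. The groups did not overlap and 69.0% of control remained (-0.54 ± 0.13, adjusted p = 0.0046), a call lost without array B of the treated group (-0.44, adjusted p = 0.071) and with the compared groups alone (adjusted p = 0.22). SUM159PT stood at 9.0, 8.91 and 8.86 and BT549 at 9.67, 9.74 and 9.52, both overlapping their controls, with changes of 0.03 ± 0.13 and -0.15 ± 0.13. The PLAUR line difference at 4 h did not pass (F = 5.24, adjusted p = 0.14) but passed without array A of MDA231 at 4 h (F = 7.58, adjusted p = 0.017).

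PLAT at 4 h was 11.92, 11.47 and 11.66 in MDA231, just under the lowest control of 11.93, and was called lower (-0.36 ± 0.11, adjusted p = 0.029). That call was lost without any 1 of siCONTROL A and B and treated arrays B and C, at -0.35 to -0.25 and adjusted p = 0.091 to 0.29, after repeated quantile normalization (-0.30, adjusted p = 0.079), with the arrays of the line alone (adjusted p = 0.13) and with the compared groups alone (adjusted p = 0.34). In SUM159PT PLAT was at 10.20, 10.51 and 10.14 and in BT549 at 5.86, 5.84 and 6.15, overlapping the controls in both (-0.17 ± 0.11 and -0.07 ± 0.11).

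SERPINE2 at 4 h was not called in any line. It read 9.04, 8.39 and 8.67 in MDA231 (-0.25 ± 0.11, adjusted p = 0.14), overlapping the controls. Without treated array A the MDA231 value was -0.42 (adjusted p = 0.0028). SUM159PT read 7.60, 7.32 and 7.46, all under the lowest control of 7.73 (-0.33 ± 0.11, adjusted p = 0.093), and SERPINE2 passed there with aligned medians (-0.37, adjusted p = 0.048) and with array weights (-0.34, adjusted p = 0.0021). BT549 read 9.89, 9.98 and 9.78, against a lowest control of 10.02 (-0.14 ± 0.11, adjusted p = 0.87).

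In counts, 4 h of selumetinib lowered 3 of the 4 genes in MDA231, where 15.6% of all genes were called and 14.5% were lower, and called 0 of the 4 in SUM159PT (4.28%) and BT549 (0.652%), with unadjusted p under 0.05 for PLAU and SERPINE2 in the former and for PLAU in the latter. In the mean of the lines all 4 were lower, against 13.8% of all genes called and 12.7% lower. Besides PLAU these were SERPINE2 (-0.24 ± 0.07, adjusted p = 0.013), PLAUR (-0.22 ± 0.07, adjusted p = 0.039) and PLAT (-0.20 ± 0.06, adjusted p = 0.037). After repeated quantile normalization PLAU alone was called, with SERPINE2 at -0.10 (adjusted p = 0.27), PLAUR at -0.12 (adjusted p = 0.26) and PLAT at -0.16 (adjusted p = 0.12).

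The 4 h calls of PLAUR and PLAT in the mean of the lines also depended on single arrays. For PLAUR the call was lost without any 1 of 12 arrays, at -0.22 to -0.16 and adjusted p = 0.053 to 0.11. These were siCONTROL A and C and treated B and C of MDA231, siCONTROL A, B and C and treated B and C of SUM159PT, and siCONTROL A and treated A and C of BT549. For PLAT it was lost without any 1 of 12 arrays, at -0.20 to -0.16 and adjusted p = 0.056 to 0.11. Those were siCONTROL A and B and treated B and C of MDA231, siCONTROL A and C and treated A and C of SUM159PT, and siCONTROL B and C and treated A and B of BT549. In limma's F test 0 of the 4 passed for a line difference at 4 h, against 1.84% of all genes, and the unadjusted p was under 0.05 for PLAU and PLAUR.

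After 24 h the activators and the receptor were all lower in MDA231. PLAU read 9.89, 9.75 and 9.85, all under the lowest control of 10.69, with 52.8% of control left (-0.92 ± 0.17, adjusted p = 1.1e-04). PLAUR read 9.81, 9.88 and 9.81, under the lowest control of 10.41, with 59.1% left (-0.76 ± 0.13, adjusted p = 2.7e-05). PLAT read 11.24, 11.16 and 10.99, under the lowest control of 11.93, with 53.1% left (-0.91 ± 0.11, adjusted p = 1.8e-07). Each of these 3 transcripts was below every control on every treated array, as 17.1% of all genes were. SERPINE2, at 8.96, 8.90 and 8.78, overlapped its controls (-0.07 ± 0.11, 95% interval -0.30 to 0.17).

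In SUM159PT the 1 member called at 24 h was the inhibitor SERPINE2. SERPINE2 read 7.31, 7.22 and 7.20 against 7.82, 7.83 and 7.73 in controls, with no overlap and 68.2% left (-0.55 ± 0.11, adjusted p = 0.0035). Every treated array lay below every control array for 20% of all genes in this line. PLAU at 6.72, 6.77 and 7.13, PLAUR at 8.86, 8.94 and 9.0 and PLAT at 10.40, 10.30 and 10.48 all overlapped their controls. Their changes were -0.24 ± 0.17, 0.04 ± 0.13 and -0.06 ± 0.11.

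No member was called in BT549 at 24 h. PLAU read 9.24, 10.02 and 9.88, overlapping the controls (-0.11 ± 0.17), and array A, the dimmest of the group, was the lowest. The PLAU value turned to 0.13 without array A (adjusted p = 0.68) and to 0.05 after repeated quantile normalization (adjusted p = 0.88). PLAUR was at 9.62, 9.99 and 9.99 (0.08 ± 0.13) and overlapped too. PLAT at 5.95, 5.58 and 5.69 lay below every control (-0.28 ± 0.11, adjusted p = 0.082) and passed with array weights (-0.37, adjusted p = 0.0074) and without the 2 dimmest arrays together (-0.39, adjusted p = 0.031). SERPINE2 at 9.61, 9.83 and 9.90 was also below every control (-0.25 ± 0.11, adjusted p = 0.13). Over all genes the BT549 median at 24 h was -0.09, and 19.1% of genes lay below every control.

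In counts, 24 h of selumetinib lowered 3 of the 4 genes in MDA231, where 17.7% of all genes were called and 10.3% were lower, 1 in SUM159PT (4.28%, and 2.94% lower) and 0 in BT549 (15.1%), where PLAT and SERPINE2 had an unadjusted p under 0.05. In the mean of the lines all 4 fell, against 26.5% of all genes called and 19.2% lower. PLAU was at -0.42 ± 0.10 (adjusted p = 0.0014), PLAT at -0.42 ± 0.06 (adjusted p = 1.1e-05), SERPINE2 at -0.29 ± 0.07 (adjusted p = 0.0013) and PLAUR at -0.21 ± 0.07 (adjusted p = 0.026). The PLAUR call was lost after repeated quantile normalization (-0.14, adjusted p = 0.12) and without siCONTROL C of MDA231, treated A of SUM159PT, or siCONTROL A or treated A of BT549, at -0.20 to -0.15 and adjusted p = 0.052 to 0.082.

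The 24 h effect differed between lines for 3 of the 4 genes, against 9.91% of all genes. PLAT (F = 15.7, adjusted p = 7.4e-04) changed in MDA231 by -0.86 ± 0.16 relative to SUM159PT and by -0.63 ± 0.16 relative to BT549. PLAUR (F = 14.1, adjusted p = 0.0015) differed by -0.80 ± 0.18 and -0.83 ± 0.18 in the same pairs. PLAU passed narrowly (F = 6.71, adjusted p = 0.041). Its call was lost without any 1 of 14 of the 18 arrays, at F = 5.08 to 6.51 and adjusted p = 0.051 to 0.10. These were all siCONTROL and 24 h arrays of MDA231, siCONTROL A, B and C and treated C of SUM159PT, and siCONTROL B and C and treated B and C of BT549. SERPINE2 did not pass (F = 4.52, adjusted p = 0.12), but did after repeated quantile normalization (F = 6.94, adjusted p = 0.029), with array weights (F = 9.29, adjusted p = 0.0065) and without the 2 dimmest arrays (F = 7.44, adjusted p = 0.024).

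The 2 times of selumetinib were compared directly, without the control arrays. PLAT in MDA231 was lower at 24 h, at 11.24, 11.16 and 10.99, than at 4 h, at 11.92, 11.47 and 11.66 (-0.56 ± 0.11, adjusted p = 3.7e-04). PLAT did not overlap between the times, as 5.49% of all genes did not in that direction. It was the 1 of 4 genes called in MDA231, where 24.9% of all genes were called, although with the compared groups alone it was not (adjusted p = 0.080). PLAU in MDA231 was at 0.27 ± 0.17 (adjusted p = 0.26) and PLAUR at -0.22 ± 0.13 (adjusted p = 0.21), both overlapping, and PLAUR passed after repeated quantile normalization (-0.36, adjusted p = 0.016). Without array A of the 4 h group, PLAU (0.46, adjusted p = 0.037) and SERPINE2 (0.35, adjusted p = 0.010) passed as higher at 24 h.

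In SUM159PT and BT549, 0 of the 4 genes passed between 4 h and 24 h, against 3.01% and 7.73% of all genes, with an unadjusted p under 0.05 for PLAU in BT549 (0.39 ± 0.17). That value was 0.62 (adjusted p = 0.047) without array A of BT549 at 24 h. In the mean of the lines 2 of the 4 were called, against 12.1% of all genes, PLAU higher at 24 h (0.31 ± 0.10, adjusted p = 0.032) and PLAT lower (-0.22 ± 0.06, adjusted p = 0.023). With the compared groups alone neither was called (adjusted p = 0.16 and 0.15). PLAU was no longer called without any 1 of 8 arrays (0.25 to 0.31, adjusted p = 0.051 to 0.095), namely 4 h B and C and 24 h C of MDA231, 4 h A and 24 h C of SUM159PT, and 4 h C and 24 h B and C of BT549. PLAT was no longer called without any 1 of 5 (-0.20 to -0.18, adjusted p = 0.051 to 0.070), namely 24 h C of MDA231, 4 h B and 24 h B of SUM159PT, and 4 h C and 24 h B of BT549.

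Because the comparisons with siCONTROL share their control arrays, the treated groups were also set against each other. DUSP4 transcript was below control in both treated groups, so the contrast is not one of lowered against unchanged DUSP4. In MDA231, PLAT was at 12.42, 12.38 and 12.45 with siDUSP4 and at 11.24, 11.16 and 10.99 with 24 h of selumetinib, a difference of 1.29 ± 0.11 (adjusted p = 7.0e-11). PLAUR was also higher with siDUSP4 (0.49 ± 0.13, adjusted p = 0.0023), and neither gene overlapped between the groups. In that direction 23.2% of all genes did not overlap. PLAU was at 0.36 ± 0.17 (adjusted p = 0.12) and SERPINE2 at -0.22 ± 0.11 (adjusted p = 0.16), also without overlap. SERPINE2 was wholly lower with siDUSP4, as 22.4% of all genes were. PLAU passed with array weights (adjusted p = 0.0094) and with the compared groups alone (adjusted p = 0.0093). SERPINE2 passed after repeated quantile normalization (-0.24, adjusted p = 0.034). In the main fit 2 of the 4 were called in MDA231, against 31.2% of all genes.

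In SUM159PT and BT549 the genes called in this direct comparison were SERPINE2 and PLAT, and PLAT ran opposite to MDA231. SERPINE2 was lower with siDUSP4 than with 24 h of selumetinib in SUM159PT (-0.63 ± 0.11, adjusted p = 2.9e-04) and BT549 (-0.80 ± 0.11, adjusted p = 5.3e-06). PLAT was lower as well (-0.39 ± 0.11, adjusted p = 0.019, and -0.41 ± 0.11, adjusted p = 0.0084), and neither gene's arrays overlapped. These are 2 of the 4 genes in each line, against 11.1% of all genes in SUM159PT and 20.8% in BT549. Every siDUSP4 array lay below every 24 h array for 20.8% of all genes in SUM159PT and 10.4% in BT549. The PLAT call was lost in SUM159PT without siDUSP4 A or 24 h A or C (-0.39 to -0.35, adjusted p = 0.053 to 0.11) and in BT549 without 24 h A (-0.30, adjusted p = 0.089) and with the compared groups alone (adjusted p = 0.098). PLAU and PLAUR overlapped between the treated groups in both lines.

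The rest of the plasminogen system was read from a list. Of 25 measured genes for further inhibitors, plasminogen receptors, clearance receptors and activating proteases, 1 rose and 3 fell in the mean of the lines after siDUSP4, against 7.43% of all genes higher and 11.3% lower, with a median of -0.06 against -0.01 for all genes. MRC2, a collagen uptake receptor that associates with the urokinase receptor, fell in every line, by 1.52 ± 0.14 in MDA231, 0.52 ± 0.14 in SUM159PT and 0.89 ± 0.14 in BT549. Among the clearance receptors, VLDLR fell by 0.36 ± 0.07 and LRP1 by 0.34 ± 0.09 on average, LRP1 with -0.94 in BT549 and 0.03 in MDA231. VLDLR was called in MDA231 alone (-0.71), with -0.28 in BT549 and -0.08 in SUM159PT. The neuroserpin gene SERPINI1, whose product inhibits tissue-type activator, rose by 0.51 ± 0.13 on average, with 1.07 ± 0.22 in MDA231.

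After 4 h of selumetinib 0 of the 25 rose and 5 fell, against 1.12% of all genes higher and 12.7% lower (median -0.05, and -0.05 for all genes). Among the 5 were VLDLR (-0.37 ± 0.07) and the integrin gene ITGB3 (-0.34 ± 0.09), whose product pairs with integrin alpha V in the vitronectin receptor. By line, VLDLR was called in MDA231 (-0.49) and BT549 (-0.47), and ITGB3 in MDA231 alone (-0.63). IGF2R (-0.18 ± 0.06), a receptor that also binds plasminogen and PLAUR, and ITGB1 (-0.16 ± 0.05) passed by small margins. After 24 h 3 rose and 4 fell, against 7.24% of all genes higher and 19.2% lower (median 0.01, and -0.01 for all genes). SERPINA5, protein C inhibitor, rose by 0.55 ± 0.08, with 1.11 ± 0.14 in SUM159PT and 0.03 ± 0.14 in MDA231. PLGRKT, a plasminogen receptor, was at -0.47 ± 0.10, VLDLR at -0.49 ± 0.07 and ITGB3 at -0.61 ± 0.09. By line PLGRKT was called in MDA231 alone (-0.61), with -0.30 in SUM159PT and -0.50 in BT549. ITGB3 was called in SUM159PT (-0.71) and BT549 (-0.68) but not in MDA231 (-0.44). After siDUSP4 ITGB3 rose in MDA231 (1.00 ± 0.16), and was not called in SUM159PT (-0.11) or BT549 (-0.33). The VLDLR mean averages -1.10 in BT549, -0.44 in MDA231 and 0.07, not called, in SUM159PT.

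Among 9 measured relatives of SERPINB2 in clade B, the mostly intracellular serpins, 1 rose and 1 fell in the mean of the lines after siDUSP4 (median 0.05), 0 rose and 2 fell at 4 h (median -0.04), and 2 rose and 1 fell at 24 h (median 0.07). Over all genes 18.7%, 13.8% and 26.5% were called in these 3 comparisons, and the medians were -0.01, -0.05 and -0.01. SERPINB8 was the one that fell each time in the mean, at -0.31 ± 0.06, -0.36 ± 0.06 and -0.33 ± 0.06. By line it was called in MDA231 alone, at -0.66, -0.53 and -0.57. It was at -0.16, -0.23 and -0.29 in SUM159PT and at -0.11, -0.31 and -0.13 in BT549. SERPINB10 was at 0.33 ± 0.10 after siDUSP4, with 1.1 ± 0.17 in MDA231, and SERPINB9 at -0.25 ± 0.07 after 4 h, with -0.60 ± 0.13 in SUM159PT. SERPINB3 rose by 3.40 ± 0.18 in MDA231 after 24 h (adjusted p = 5.8e-16), with -0.44 and 0.15, not called, in SUM159PT and BT549. Its sequence is nearly identical to that of SERPINB4, so the probe may not tell the pair apart. SERPINB1, an inhibitor of neutrophil proteases, rose by 0.82 ± 0.12 in MDA231 after 24 h.

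**Figure D3:**
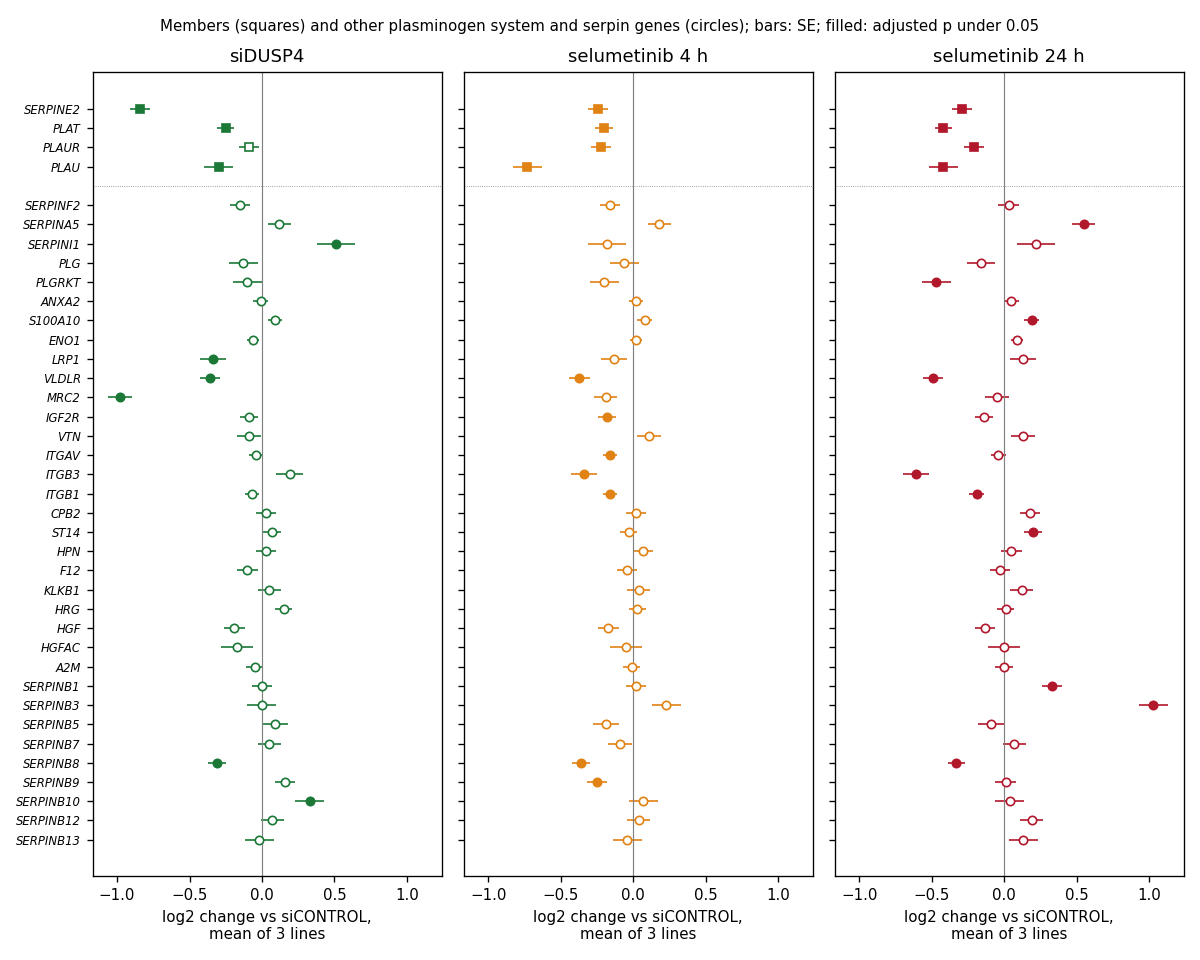
Mean log2 change of the 3 lines with its SE after siDUSP4, 4 h and 24 h of selumetinib for the 4 genes (squares, top) and for the other plasminogen system and clade B serpin genes (circles); filled symbols passed an adjusted p under 0.05. SERPINE2 (-0.84) and MRC2 (-0.98) lie farthest left after siDUSP4, PLAU (-0.73) at 4 h, and SERPINB3 (1.03) farthest right at 24 h.

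The 4 genes did not share 1 pattern. Over the 12 group means, each taken relative to the mean of its line, the Pearson correlation was 0.80 between PLAU and PLAUR and 0.60 between PLAUR and PLAT. It was 0.44 between PLAT and SERPINE2, 0.35 between PLAU and PLAT, 0.11 between PLAU and SERPINE2 and 0.02 between PLAUR and SERPINE2. These values describe 12 means that share arrays and scaling. The genes most like PLAU by the same measure, among those whose means spanned at least 1 on the log2 scale, were MAFF (0.956), TNFRSF10B (0.943) and ELK3 (0.939). For PLAUR they were IL1RAPL1 (0.943), CST1 (0.941) and NLRP3 (0.929), and for PLAT GALNT14 (0.921), INHBA (0.896) and TBC1D30 (0.893). SERPINE2 was most like PSMB5 (0.908), the collagenase gene MMP1 (0.908) and MILR1 (0.894).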

How the data were processed

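The values of these single-colour Affymetrix arrays were deposited as log2 signals. Per the submitters' processing notes, RMA was run in Affymetrix Expression Console 1.1, with options not given in the sources used here. The table holds 33297 probes, of which 19181 have 1 gene symbol in the platform annotation, 2055 several and 12061 none listed. Only the brightest single-symbol probe per gene was used, which left out 1 PLAU probe shared with a neighbouring gene.

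A linear model with 12 group means was fitted in limma 3.58.1 (R 4.3.3) over the 36 arrays, with eBayes and Benjamini-Hochberg adjustment over 17958 genes within each comparison. Unadjusted p-values come from the same fit. Percentages of control were computed from the log2 change. Named list genes are up to 4 called ones of smallest adjusted p for each treatment's mean. In a simulation of siDUSP4 in MDA231, 200 of the 17958 genes were changed and the noise was independent and normal. There 100% of log2 changes of 1 and 56% of changes of 0.5 were recovered, and 9.3% of calls were unchanged genes. The data called 17.6% of all genes in this comparison, a far larger share than was changed, so these rates need not hold for the data. Precision is limited by 3 arrays a group, which cannot give an exact permutation p under 0.1. Alternatives were the line or the compared groups alone, a replicate block, repeated quantile normalization, aligned medians, a filter on dim genes, the mean of all probes, a trended robust prior, array weights, each array left out and, chosen after seeing the data, the 2 dimmest arrays left out and pairs of lines. The genes and lists were chosen with earlier results of these data known.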

Additional observations from a re-analysis of the deposited data

Results flagged for a closer look

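These effects differed between the lines in a test of the difference itself (limma F test, adjusted over all genes). After siDUSP4 the PLAT change differed (adjusted p = 2.5e-05), at 0.38 in MDA231, -0.45 in SUM159PT and -0.69 in BT549. The SERPINE2 change after siDUSP4 differed (adjusted p = 2.7e-04), at -0.29, -1.18 and -1.05 in the same order. With 24 h of selumetinib the PLAT change differed (adjusted p = 7.4e-04), at -0.91, -0.06 and -0.28. The PLAUR change differed (adjusted p = 0.0015), at -0.76, 0.04 and 0.08. The PLAU change differed by a small margin (adjusted p = 0.041), at -0.92, -0.24 and -0.11, and was no longer called without any 1 of 14 of the 18 arrays (adjusted p = 0.051 to 0.10) or under the replicate block (adjusted p = 0.057).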

How the results depend on the processing

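Of 1848 alternative values of single members, 1709 kept their side of the threshold, 99 lost a call and 40 gained one, and no called value changed sign. In 33 of the 1709 the sign changed where neither value was called, mostly for PLAUR and for PLAU in BT549. Of 462 counts of all members called, 408 stayed within 1.5 times the reported count. The causes were not tested.

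With repeated quantile normalization the count of all members called went from 4 to 1 at 4 h in the mean of the lines and, for 24 h against 4 h, from 1 to 2 in MDA231 and from 0 to 1 in SUM159PT and in BT549. With aligned medians it went from 0 to 2 at 4 h in SUM159PT. Array weights gave 2 there, 1 at 24 h in BT549, 3 for 24 h against 4 h in BT549 and 2 line differences at 4 h. With the line alone it was 1 for siDUSP4 in MDA231 and 2 at 4 h in SUM159PT. With the compared groups alone it was 1, 2 and 2 at 4 h in MDA231, SUM159PT and the mean, 0 and 0 for 24 h against 4 h in MDA231 and the mean, and 1 for siDUSP4 against 24 h in BT549. Without the 2 dimmest arrays it was 2 at 4 h in the mean, and 1 at 24 h, for 24 h against 4 h and for siDUSP4 against 24 h in BT549. Leaving out 1 array gave 0 to 2 for siDUSP4 in MDA231, 1 to 2 in SUM159PT, 1 to 4 at 4 h in MDA231, 2 to 4 in the mean, 1 to 3 for 24 h against 4 h in MDA231, 0 to 1 in BT549, 0 to 2 in the mean, 1 to 2 for siDUSP4 against 24 h in SUM159PT and in BT549, and 0 to 2 line differences at 4 h.

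Pairing by replicate letter was not seen in most comparisons. In 1 of 18 comparisons every letter's correlation of deviations was over 0.1 (range over all -0.41 to 0.45). That was 4 h of selumetinib against siCONTROL in SUM159PT, at 0.15, 0.11 and 0.27. For 24 h against 4 h in MDA231 the letters gave 0.45, 0.34 and 0.09. The cut of 0.1 is arbitrary, so these values cannot settle whether letters pair in a single comparison. Under the replicate block PLAUR at 4 h in the mean of the lines was at -0.22 (adjusted p = 0.058) and the PLAU line difference at 24 h at F = 6.30 (adjusted p = 0.057), and no other member call changed.

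Scaling also moved the balance of calls over all genes. Lower genes made up 92.9% of calls at 4 h in MDA231 and 73.0% after repeated quantile normalization, 91.9% and 66.0% in the mean at 4 h, and, at 24 h, 82.4% and 56.2% in BT549, 68.8% and 55.7% in SUM159PT and 72.6% and 54.5% in the mean. Aligning medians moved the median of all genes between SUM159PT and BT549 controls from -0.01 to -0.15, and PLAT in BT549 near the median probe level is limited by dim signal.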
